A study of Mus musculus with 38 samples.

Results

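Transcripts of 9 genes of hepatic glucose metabolism and insulin signalling were followed in mice given haloperidol or placebo: Pck1, G6pc, Fbp1, Pklr, Igfbp1, Insr, Irs1, Irs2 and Foxo1. They were taken by exact gene symbol from the 18820 genes that the arrays name. Insr had 2 probe sets, of which the one with the higher mean over all arrays was used, and each of the other genes had 1. Haloperidol is an antipsychotic drug that blocks dopamine D2 receptors. The haloperidol group comprised 9 livers and 10 whole brains of C57BL/6J mice carrying slow-release haloperidol pellets for 30 days, and the placebo group 9 livers and 10 whole brains of C57BL/6J mice given placebo. All mice were inbred animals bred at UNC within a few generations of Jackson Laboratory founders, and no transgene or other agent is named for either group. The sources used here do not give age, sex, dose or feeding state at collection. Each array carries a tag of a digit and a letter, such as 4T, and what either marks is likewise not given. Bulk tissue was measured, so fewer cells of a type and less RNA per cell cannot be told apart.

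In the fasted liver, glucagon and falling insulin raise gluconeogenesis, and the transcription factor FOXO1, freed from insulin's inhibition, acts on genes such as G6pc, Pck1, Igfbp1 and Irs2. In the fed liver, insulin signals through its receptor INSR and the adaptors IRS1 and IRS2 and excludes FOXO1 from the nucleus, while glucose and insulin switch on glycolysis and the synthesis of fatty acids. Levels of these transcripts are known to follow the last meal. Neurons and glia carry the same receptor and adaptors, while the enzymes of glucose output belong mainly to liver and kidney.

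Promoter windows of 4 genes from RefSeq (GRCm38.p6, 300 bases that span an annotated transcript start) are printed because the liver levels of Igfbp1 and Irs2 ran together and those of Pklr ran with the genes of fatty acid synthesis, as described further on, while G6pc, which carries the same motif as Igfbp1 and Irs2, did not pass the test of running with either. Irs1, not printed, also carries that motif and did not pass with Irs2 or Igfbp1 (Pearson's r = 0.15 and 0.13). Pck1 has no such motif in its window and passed with both by rank. Whether the motif has a part in which levels ran together was not tested. Capitals mark CAAAACA (or TGTTTTG, its reverse complement), the insulin response motif bound by FOXO factors, the E-box CACGTG, the carbohydrate response motif CACGGGNNNNNCCCGTG and the TATA box TATAAA.
Igfbp1: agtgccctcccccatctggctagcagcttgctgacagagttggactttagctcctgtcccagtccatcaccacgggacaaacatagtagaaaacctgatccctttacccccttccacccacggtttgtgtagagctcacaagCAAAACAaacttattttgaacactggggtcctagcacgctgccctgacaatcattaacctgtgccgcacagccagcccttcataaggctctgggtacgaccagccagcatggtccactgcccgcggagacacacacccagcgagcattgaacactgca
Irs2: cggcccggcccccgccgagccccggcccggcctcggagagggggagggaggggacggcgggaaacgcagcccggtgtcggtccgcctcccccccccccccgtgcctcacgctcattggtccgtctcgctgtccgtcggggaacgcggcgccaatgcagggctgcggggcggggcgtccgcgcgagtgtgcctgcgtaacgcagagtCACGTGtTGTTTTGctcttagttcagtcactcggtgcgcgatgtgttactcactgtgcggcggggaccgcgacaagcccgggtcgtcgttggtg
G6pc: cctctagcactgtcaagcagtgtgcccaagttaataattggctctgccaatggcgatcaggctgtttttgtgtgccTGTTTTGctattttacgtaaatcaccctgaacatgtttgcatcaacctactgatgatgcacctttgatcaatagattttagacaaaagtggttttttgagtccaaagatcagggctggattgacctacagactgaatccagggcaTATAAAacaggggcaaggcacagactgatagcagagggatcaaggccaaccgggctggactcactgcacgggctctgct
Pklr: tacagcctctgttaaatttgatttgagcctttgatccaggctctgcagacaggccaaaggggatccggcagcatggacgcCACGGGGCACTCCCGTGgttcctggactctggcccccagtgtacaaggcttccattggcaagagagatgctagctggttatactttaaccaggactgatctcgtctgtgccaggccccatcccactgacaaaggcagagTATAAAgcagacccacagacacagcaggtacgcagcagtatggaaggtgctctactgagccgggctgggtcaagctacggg
The windows lie at chr11:7197537-7197836 on the plus strand for Igfbp1, at chr8:11008880-11009179 on the minus strand for Irs2, at chr11:101367466-101367765 on the plus strand for G6pc and at chr3:89136373-89136672 on the plus strand for Pklr, where it is the second of 2 windows of that gene and lies around a transcript start downstream of the first. Windows were found for 8 of the 9 genes, and each motif was searched on both strands. CAAAACA stood in the windows of 4 of these 8 genes, against 6.28% of all 32851 windows, at bases -108 to -102 from the start of Igfbp1, -37 to -31 of Irs2 and -174 to -168 of G6pc. The fourth gene was Irs1. Known targets of FOXO1 are among the 8 genes and the motif is one that FOXO factors bind, so this count is not a test of enrichment. A second FOXO motif, GTAAACA, was in 3.65% of all windows and in none of the 8 genes. The half-site of the cAMP response element, TGACG, was in 20.8% of all windows and in those of Pck1, at bases -90 to -86, and Irs1. CACGTG was in 7.15% of all windows and in those of Irs1, where it overlaps both TGACG and 1 of 2 CAAAACA, and Irs2, where it ends 1 base before CAAAACA. CACGGGNNNNNCCCGTG was found only in the window of Pklr, at bases -170 to -154, and in 1 of the 32851 windows in all; its letters are those of the known element of this gene, so the match was built into the search. TATAAA was in 13.6% of all windows and in those of G6pc and Pklr. A match is a run of letters and not a measured binding site.

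The deposited values are log2 intensities whose distributions differed between the tissues, so levels were compared within a tissue only and never between genes. Pairs of arrays of 1 group correlated at r of 0.979 or more in brain with haloperidol and at 0.989 or more in brain with placebo. Alb, the hepatocyte product albumin, lay between 13.15 and 13.27 in haloperidol livers and between 13.13 and 13.23 in placebo livers. Snap25, a synaptic protein, lay between 12.72 and 12.86 in haloperidol brains and between 12.69 and 12.88 in placebo brains, and the change of the other neuron markers is given with the brain results. The haloperidol brain 4T stood apart, with Alb at 11.11, against at most 4.51 in placebo brains, and with a mean over 6 hepatocyte markers of 9.01, against at most 5.58 in placebo brains. In liver, the mean level of 10 Kupffer cell markers was between 7.32 and 7.92 with haloperidol and between 7.37 and 8.17 with placebo. All 10 had a change below 0, with a median of -0.31, and 7 had an unadjusted limma p below 0.05, against 10.5% of all genes tested in liver. None passed the test after adjustment, and the part of these markers in the results below was not tested. Of the markers of pancreas, fat and kidney, 2 of 6, 1 of 4 and 0 of 4 were above the limit for dim genes in liver.

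No member passed the test of haloperidol against placebo livers. Of the 12547 genes tested in liver after a filter that left out the dimmest genes, 0 passed an adjusted p of 0.05 in limma with Benjamini-Hochberg adjustment, which is 0% of the genes tested, and the exact Wilcoxon test also called 0. At an unadjusted p below 0.05 there were 1316 genes (10.5%), and 0 of the 9 members were among them. The median change over the members was -0.05 on the log2 scale, against -0.02 over all genes tested. All 9 passed the filter on dim genes in liver, and in each of them the groups overlapped.

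**Figure D1:**
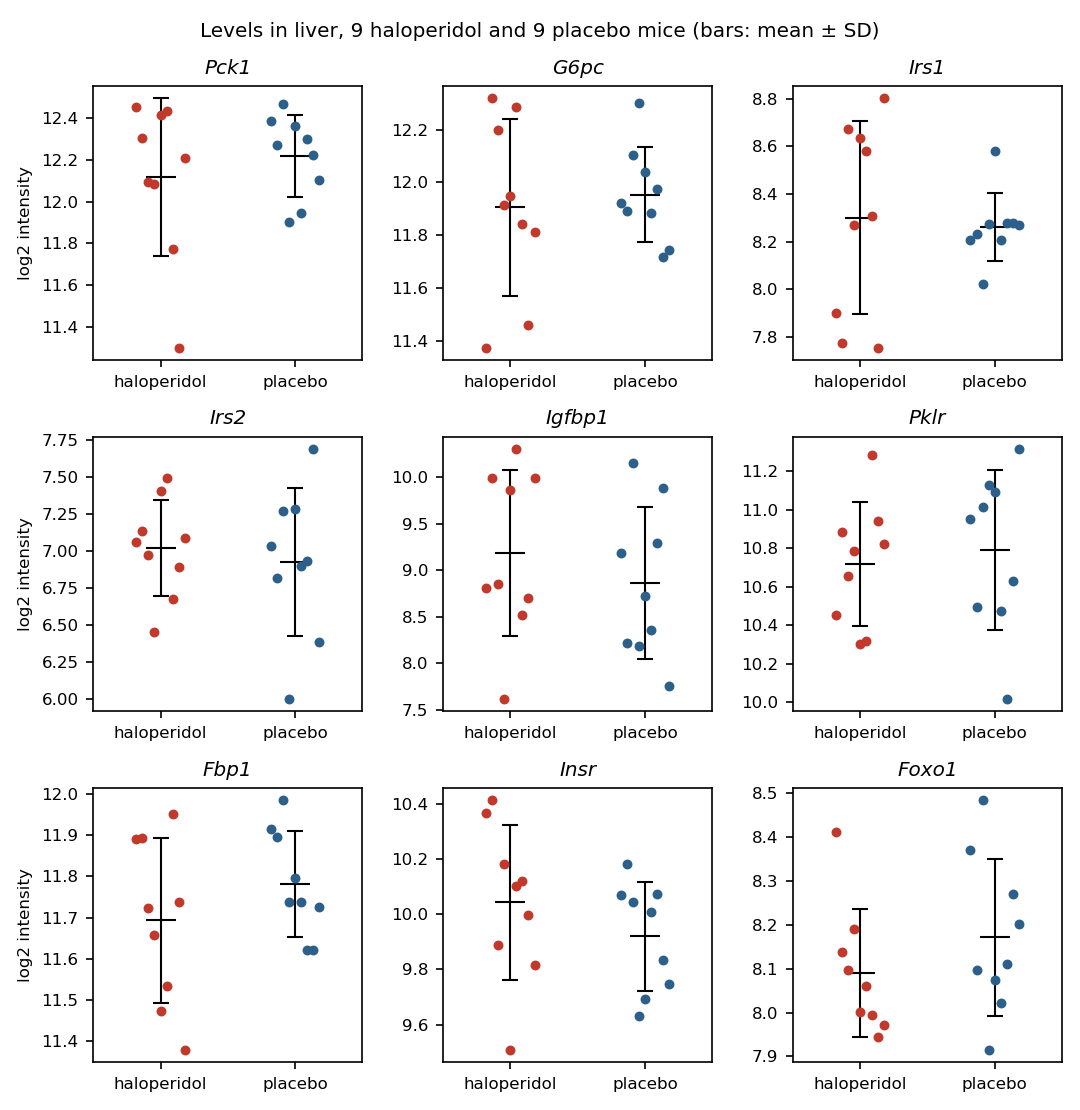
Liver levels of the 9 genes on the log2 intensity scale, 1 point per mouse, with haloperidol left and placebo right and bars for the mean and SD of 9 mice each. The groups overlap in every panel. Igfbp1 spans the widest range in both groups, and the haloperidol points of Irs1 reach above and below the placebo points.

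Of the enzymes that make glucose, Pck1 (cytosolic phosphoenolpyruvate carboxykinase, the entry step of gluconeogenesis) had a lowest, median and highest level of 11.30, 12.21 and 12.45 in haloperidol livers, against 11.90, 12.27 and 12.47 in placebo livers. The change was -0.10 (SE 0.13, 95% confidence interval -0.38 to 0.18, limma adjusted p = 0.808). Without the haloperidol liver 4L, which held the lowest value, the change was 0.0023. G6pc, the catalytic subunit of glucose-6-phosphatase that releases free glucose, stood at 11.37, 11.92 and 12.32 in haloperidol livers, against 11.72, 11.92 and 12.30 in placebo livers. Its medians were the same to 2 decimals, and the change was -0.05 (SE 0.12, interval -0.30 to 0.20, limma adjusted p = 0.917). Fbp1, fructose-1,6-bisphosphatase, stood at 11.38, 11.72 and 11.95 in haloperidol livers, against 11.62, 11.74 and 11.98 in placebo livers. In 3 haloperidol livers it lay below every placebo liver, and the change of -0.09 (SE 0.083, interval -0.26 to 0.09) did not pass (limma adjusted p = 0.709).

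Pklr, the liver pyruvate kinase that closes glycolysis and rises with carbohydrate feeding, had a lowest, median and highest level of 10.30, 10.79 and 11.29 in haloperidol livers, against 10.02, 10.95 and 11.31 in placebo livers. No haloperidol liver lay outside the placebo range. The change was -0.07 (SE 0.16, interval -0.41 to 0.26, limma adjusted p = 0.898).

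Igfbp1, a secreted IGF-binding protein whose transcript insulin represses, stood at 7.61, 8.86 and 10.30 in haloperidol livers, against 7.76, 8.72 and 10.15 in placebo livers. Levels spread over 2.68 log2 units with haloperidol and 2.40 with placebo, and its SD within groups was above that of 99.8% of the genes tested in liver. The change of 0.32 (SE 0.36) had an interval from -0.42 to 1.07, the widest of the 9 (limma adjusted p = 0.759). With limma's array weights, which count the more variable livers less, the same change was -0.01.

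Of the receptor and its adaptors, Insr stood at 9.51, 10.10 and 10.41 in haloperidol livers, against 9.63, 10.01 and 10.18 in placebo livers. The change was 0.12 (SE 0.11, interval -0.11 to 0.35, limma adjusted p = 0.692), and its second probe set gave 0.14. That probe set varied less, at 9.59 ± 0.091 in haloperidol livers and 9.45 ± 0.092 in placebo livers (SD). The SDs of the probe set used were 0.28 and 0.20, so the precision of this change depends on the probe set. In liver Insr passed in 0 of 30 alternatives, the second probe set among them (lowest adjusted p = 0.416). Irs1 stood at 7.75, 8.31 and 8.80 in haloperidol livers, against 8.02, 8.27 and 8.58 in placebo livers. Of the haloperidol livers, 3 lay above the highest placebo liver and 3 below the lowest, and the means were nearly level, with a change of 0.04 (SE 0.13, interval -0.24 to 0.32, limma adjusted p = 0.939). Irs2 stood at 6.45, 7.06 and 7.49 in haloperidol livers, against 6.00, 6.93 and 7.68 in placebo livers, all haloperidol values within the placebo range. The change was 0.10 (SE 0.18, interval -0.28 to 0.47, limma adjusted p = 0.881).

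Foxo1, which encodes the factor that insulin restrains, stood at 7.94, 8.06 and 8.41 in haloperidol livers, against 7.91, 8.11 and 8.48 in placebo livers. Of 9 haloperidol livers, 7 lay below the placebo mean, and the change was -0.08 (SE 0.082, interval -0.25 to 0.09, limma adjusted p = 0.727). Its activity is set largely by phosphorylation and location in the cell, which arrays do not measure.

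**Figure D2:**
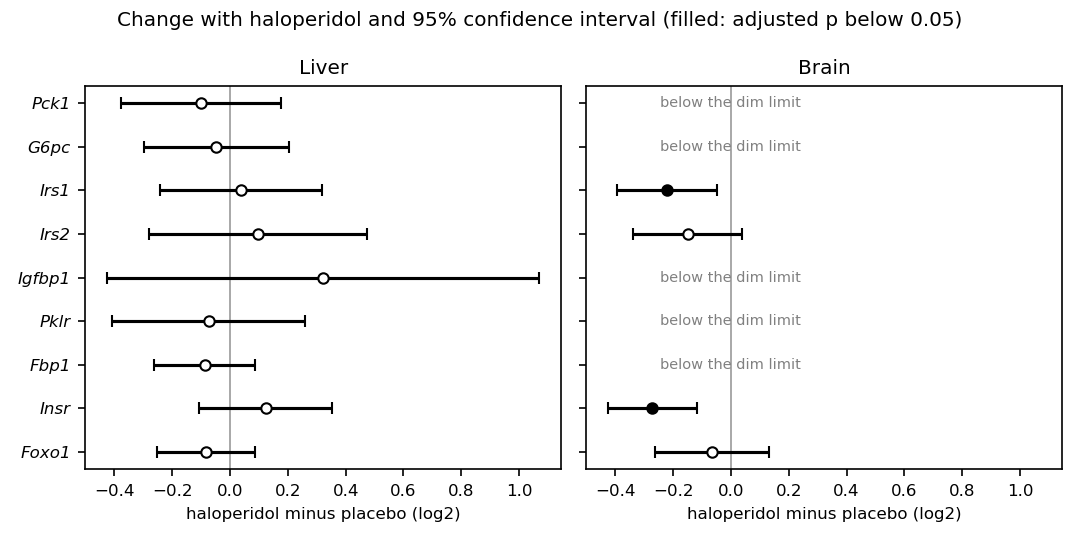
Haloperidol minus placebo change of each gene on the log2 scale with its 95% confidence interval, in liver (left) and brain (right). Open points did not pass an adjusted p of 0.05 and filled points did. All 9 liver intervals include 0, Igfbp1 has the widest, from -0.42 to 1.07, and in brain Insr and Irs1 lie below 0 as deposited.

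The spread between livers was tested besides the mean, with limma on the distance of each liver from its group mean. The SD of Irs1 was 0.41 with haloperidol and 0.14 with placebo, a ratio of 2.81. The test gave an unadjusted limma p of 0.00244 and an adjusted p of 0.585. Across all genes 0 of 12547 (0%) passed and 822 had an unadjusted p below 0.05. On simulated data the spread test recovered 0% of genes whose SD was changed 2-fold and 6.15% of those changed 4-fold. A member that did not pass may therefore still differ in spread. Pck1 had an SD of 0.38 with haloperidol and 0.20 with placebo, and G6pc 0.33 with haloperidol and 0.18 with placebo, both without passing. Irs2 had the wider spread with placebo, at 0.33 with haloperidol and 0.50 with placebo, and did not pass.

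Igfbp1 and Irs2 were high and low in the same livers. Each group was centred on its own mean, and Pearson's r was taken over the 18 livers for all 36 pairs of members, with 100000 permutations of the livers within groups, and 1 pair passed. Irs2 with Igfbp1 gave r = 0.80 (permutation p = 0.00012, adjusted over the 36 pairs 0.00432) and Spearman's rho = 0.90 (permutation p = 3e-05, adjusted 0.00108). Within groups r was 0.91 over 9 haloperidol livers and 0.77 over 9 placebo livers. Leaving out the 2 livers farthest from the median of Irs2, placebo 2B and 4B, gave r = 0.85. In haloperidol livers 3B and 2T held the highest values of Irs2, and 2N the lowest value of both genes. The 4 or 5 livers of each tag digit were too few for a value of their own, and centring on treatment and digit gave r = 0.87 (permutation p = 0.00313, adjusted 0.0563).

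**Figure D3:**
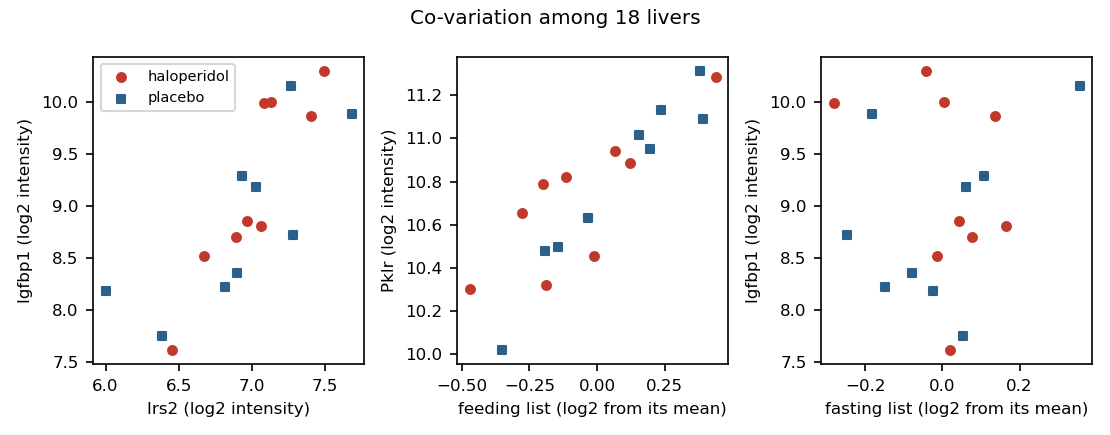
Each point is a liver, with haloperidol as circles and placebo as squares. Left, Igfbp1 against Irs2 (r = 0.80). Middle, Pklr against the mean of 19 feeding genes (r = 0.89). Right, Igfbp1 against the mean of 22 fasting genes (r = 0.07). The vertical axes and the axis of Irs2 are log2 intensities, and the axes of the lists are log2 distances from the list's mean over the livers.

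Pck1 passed with the same 2 genes by rank and not by Pearson's r. Its Pearson's r was 0.53 with Irs2 (permutation p = 0.0115, adjusted 0.101) and 0.53 with Igfbp1 (permutation p = 0.0296, adjusted 0.152), neither of which passed. By rank both passed, with rho = 0.75 for Irs2 (permutation p = 0.00071, adjusted 0.0128) and 0.69 for Igfbp1 (permutation p = 0.00217, adjusted 0.026). The haloperidol liver 4L, lowest in Pck1, was 1 of the 2 livers whose omission took r to 0.69 with Irs2 and to 0.61 with Igfbp1. G6pc did not pass with any member, and with Irs2 its r was -0.01 and with Igfbp1 0.29. Pklr had r = -0.43 with Irs2 and -0.40 with Pck1, and neither passed (permutation adjusted p = 0.298 and 0.277).

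Pklr ran with the genes of the fed liver. A list of 22 genes of lipogenesis and glucose use that insulin and glucose raise, members left out, had 19 genes tested in liver, and their mean was set against each member. Of 18 relations of the 9 members with this list and with a list of fasting genes, 1 passed: Pklr with the feeding list, at r = 0.89 (permutation p = 1e-05, the smallest that the permutations can give, adjusted over the 18 relations 0.00018) and rho = 0.92. It was 0.81 over haloperidol livers, 0.97 over placebo livers, 0.86 without the 2 livers farthest from the median of Pklr, placebo 3T and 4R, and 0.97 when centred on treatment and digit (permutation adjusted p = 0.0108). Of the 19 genes, 15 had r above 0.5 with Pklr, 10 with Fbp1 and 0 to 2 with each other member. Fbp1 with the feeding list gave r = 0.55 (permutation p = 0.0205, adjusted 0.123) and did not pass. Centred on treatment and digit its r was 0.74 (permutation adjusted p = 0.0651). The genes with the highest r with Pklr over all 12546 others were Acly (ATP citrate lyase, 0.91), Fasn (fatty acid synthase, 0.89) and Slc25a44 (a mitochondrial carrier, 0.83). Acly and Fasn are on the list. In haloperidol livers 3R was highest in both Pklr (11.29) and the list, and 2T lowest in both. In placebo livers 3T was lowest in both, with Pklr at 10.02.

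The mean of the fasting list did not line up in that way. The mean of 22 fasting genes (targets of PPARA, glucagon and glucocorticoids, from a list of 25) had r = 0.11 with Pck1, -0.03 with G6pc, -0.08 with Irs2 and 0.07 with Igfbp1, and none passed (permutation adjusted p = 0.888, 0.902, 0.888 and 0.888). Its largest r was with Foxo1, at 0.54 (permutation p = 0.031, adjusted 0.139). The fasting and the feeding list had r = -0.06 with each other. The mean of 25 genes of glucagon, cAMP and glucocorticoid signalling had r = 0.84 with Foxo1 and 0.54 with Pck1. With Igfbp1 it had r = 0.34, with Irs2 0.32 and with G6pc -0.21, and none of these was tested. Single genes of the fasting list stood nearer to the members: Pck1 had r = 0.70 with Tat (tyrosine aminotransferase), 0.65 with Klf15, 0.65 with Slc25a25 and 0.63 with Angptl4, but -0.74 with Ehhadh, an enzyme of peroxisomal fatty acid oxidation. Igfbp1 had r = 0.64 with Klf15, a factor that glucocorticoids and fasting raise, and -0.57 with Fgf21, a fasting hormone of the liver.

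**Figure D4:**
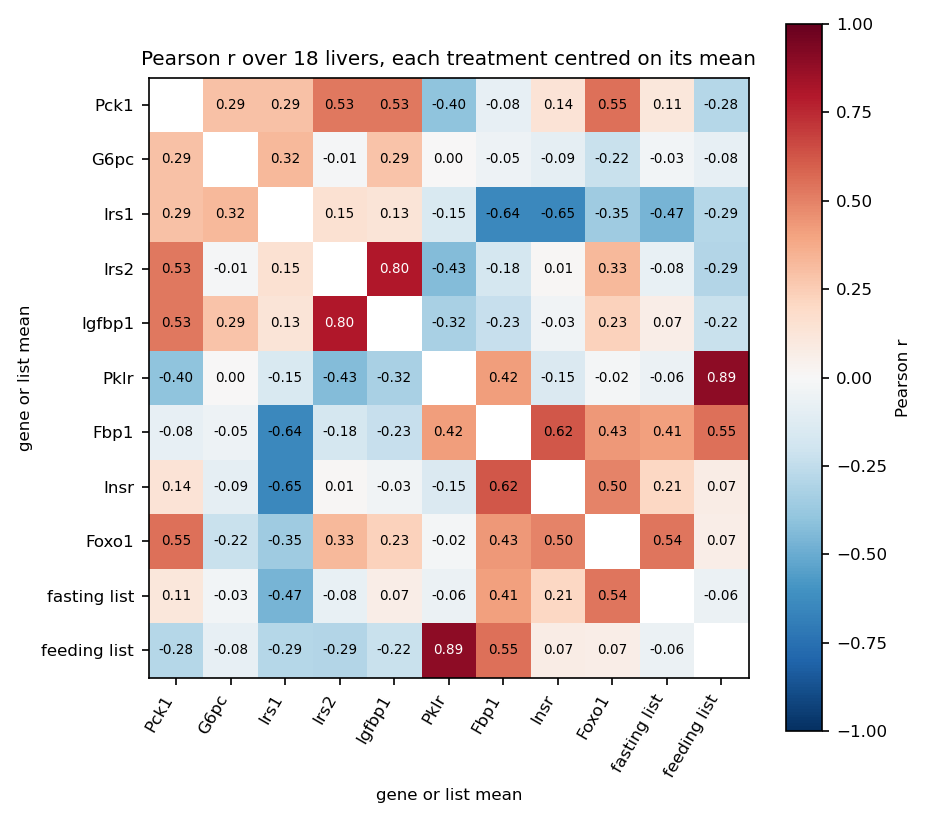
Pearson's r between members, and between members and the means of the fasting and feeding lists, over 18 livers with each treatment centred on its own mean; red is positive and blue negative. Irs2 with Igfbp1 (0.80) and Pklr with the feeding list (0.89) are the darkest cells, Irs1 runs against Insr (-0.65) and Fbp1 (-0.64), and the row of the fasting list is pale beside Pck1, G6pc, Irs2 and Igfbp1.

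Among all genes, the nearest to both Igfbp1 and Irs2 was Junb, an immediate early transcription factor, at r = 0.88 and 0.89 over 18 livers. Siglecf (0.85) and Igfbp1 itself (0.80) followed for Irs2, and Irs2 (0.80) and Irf2bp2 (0.79) for Igfbp1. Pck1 was nearest to Sik1 (0.78), a kinase that cAMP induces and that restrains gluconeogenic transcription, then Oaf (0.73) and Ahsg (0.73). G6pc was nearest to Noxo1 (0.70), Dusp26 (0.69) and Cyfip2 (0.69). Foxo1 was nearest to Fkbp5 (0.84), a glucocorticoid target, then Efhd2 (0.80) and St3gal5 (0.80). These are the highest of 12546 values each and carry no test.

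Insr, Irs1 and Fbp1 moved with the main axis of variation among the livers. The first principal component of the centred liver data held 28.5% of the variance and had r = 0.91 with Insr, -0.69 with Irs1, 0.62 with Fbp1 and 0.47 with Foxo1. G6pc was at -0.25, and Pck1, Pklr, Igfbp1 and Irs2 were nearer to 0. Of the 12546 other genes, 1818 had an absolute r above 0.7 with Insr, 717 with Irs1 and 456 with Fbp1, against 12 to 37 for the other 6 members. The haloperidol liver 2T lay farthest out on this axis and held the lowest Insr level, 9.51. Irs1 with Insr gave r = -0.65 (permutation p = 0.00905, adjusted 0.101) and rho = -0.68 (adjusted 0.0286), and Irs1 with Fbp1 gave r = -0.64 (permutation p = 0.0168, adjusted 0.101) and rho = -0.70 (adjusted 0.0286), so that both passed by rank and not by Pearson's r. Their nearest genes were Zc3h18 (0.88), Nudc (0.88) and Mrgbp (0.87) for Irs1, Fads1 (0.93), Eps15 (0.91) and Enpep (0.88) for Fbp1, and Dynlt3 (0.96), Zfp933 (0.95) and Manea (0.94) for Insr. Fads1, a fatty acid desaturase, is on the feeding list.

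The tag digit differed in 139 of 12547 genes in liver with treatment in the fit (1.11%), and in 0 of the 9 members. Insr came nearest, at a mean of 10.22 over digit 1, 9.80 over digit 2, 10.00 over digit 3 and 9.85 over digit 4 (limma F test, adjusted p = 0.0933). Haloperidol minus placebo within digits 1 to 4 was 0.29, 0.23, 0.19 and 0.12 for Insr. It was 0.22, 0.60, 0.62 and 0.53 for Igfbp1. These were 2 members with 1 sign in all 4 digits, and the other 7 had both signs, such as Pck1 at 0.004, 0.30, -0.10 and -0.41. Each of these differences rests on 1 to 3 livers a group.

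The wider pathway gave no call in liver either. Of 22 fasting genes tested, 0 passed, 10 changes were above 0 and 12 below, and the median was -0.02, the same as over all genes to 2 decimals. Those of smallest unadjusted p were Fgf21 (0.37, SE 0.095), Tat (-0.23, SE 0.076) and Txnip (0.56, SE 0.18), the thioredoxin-interacting protein that glucose raises. Of 19 feeding genes, 0 passed, 14 changes were below 0 and the median was -0.16; Taldo1 (-0.23, SE 0.063) and Tkt (-0.21, SE 0.07), of the pentose phosphate pathway, and Thrsp (-0.79, SE 0.31), a lipogenic factor, had the smallest p. The limma adjusted p of these 6 genes lay between 0.334 and 0.409. Their list levels overlapped: the feeding mean lay between -0.47 and 0.44 log2 units of its overall mean in haloperidol livers and between -0.35 and 0.39 in placebo livers.

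Of 25 other genes of gluconeogenesis and glycolysis, 0 passed in liver and the median was -0.07, with G6pc3 (a ubiquitous glucose-6-phosphatase) at 0.29, and the glycolytic enzymes Pgam1 at -0.25 and Pgk1 at -0.29. Of 17 glycogen genes, 0 passed, with a median of -0.06: Phka2 of phosphorylase kinase was at 0.22, the liver phosphorylase Pygl at -0.17 and Gys1, the muscle-type glycogen synthase, at -0.21. Of 37 other genes of insulin signalling, 0 passed, with a median of -0.03. Its 3 genes of smallest p were Rictor of the complex mTORC2 at 0.25, Mtor at 0.15 and Socs1, an inhibitor of cytokine and insulin signalling, at -0.29. Of 25 genes of glucagon, cAMP and glucocorticoid signalling, 0 passed, with a median of -0.03, and Pde4d, a cAMP phosphodiesterase, was at 0.32, Sik1 at -0.32 and Nr4a2 at -0.20.

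In brain, 4 members were measured above the limit for dim genes, and 2 of them, Insr and Irs1, fell as deposited but passed no test relative to the array median. With quantile normalization within each tissue Insr passed and Irs1 did not. Over all genes 3816 of 12547 passed in brain (30.4%), 1911 higher (15.2%) and 1905 lower (15.2%) with haloperidol, so the 2 of 4 stand beside a high background. The level of the brain arrays also differed, with an array median over all probes of 6.19 ± 0.072 in the 10 haloperidol brains and 6.33 ± 0.044 in the 10 placebo brains (SD), and the median change over all genes was -0.02 as deposited and 0.12 once each array's median was subtracted, when 4088 genes passed higher and 467 lower. With quantile normalization within each tissue the median change was 0.01, and 2531 genes passed higher and 1955 lower. Because the array level differed, changes of the members in brain are also given relative to the array median. The array median went largely with treatment, at 6.08 to 6.33 in haloperidol brains and 6.27 to 6.40 in placebo brains. A fit with it as a covariate therefore cannot tell array level from treatment.

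Some cell type markers also passed in brain. As deposited these were 1 of 6 neuron markers and 2 of 6 macrophage markers, where 30.4% of all genes passed. These counts stand beside a high background and do not by themselves show a shift in cell types. The mean level of 6 neuron markers was between 11.61 and 11.91 in haloperidol brains and between 11.77 and 11.94 in placebo brains. Their changes were below 0 for 5 of 6, with a median of -0.11, and 1 passed lower as deposited, the glutamate transporter gene Slc17a7 at -0.20 (limma adjusted p = 0.0425). Relative to the array median 2 passed higher and 0 lower, and with quantile normalization 0 higher and 3 lower. Of 10 macrophage markers, several of which microglia share, the mean level was between 6.42 and 6.70 in haloperidol brains and between 6.16 and 6.54 in placebo brains. The 6 that were tested had a median change of 0.20 with 5 of 6 above 0, and 2 passed higher, the complement genes C1qa at 0.30 and C1qb at 0.35 (limma adjusted p = 0.0141 and 0.0222), or 5 relative to the array median. Alas2, which makes haem in red cell precursors and was the erythroid marker tested in brain, lay at 7.47 to 8.13 in haloperidol brains and at 6.31 to 7.30 in placebo brains, so that the groups did not overlap, with a change of 0.85 (limma adjusted p = 0.00105). The part of these markers in the changes of Insr and Irs1 was not tested.

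Insr, the receptor that neurons carry widely, had a lowest, median and highest level of 8.58, 9.06 and 9.27 in haloperidol brains, against 9.08, 9.28 and 9.47 in placebo brains. All 10 haloperidol brains lay below the placebo mean and 5 below the lowest placebo brain. The change was -0.27 (SE 0.074, interval -0.42 to -0.12, limma adjusted p = 0.0106), a fall to 0.829-fold, and the second probe set gave -0.19 (adjusted p = 0.0189). Relative to the array median the change was -0.14 and did not pass (limma adjusted p = 0.107). With the array median as a covariate it was -0.02 (limma adjusted p = 0.978), in a fit where 0 of all 12547 genes passed. That fit cannot tell array level from treatment. Insr passed in 31 of 33 alternatives, quantile normalization within each tissue among them, and the 2 exceptions were those with the array median.

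Irs1 stood at 7.57, 8.16 and 8.48 in haloperidol brains, against 8.19, 8.38 and 8.52 in placebo brains, with 8 of 10 haloperidol brains below the placebo mean and 4N lowest. Its change of -0.22 (SE 0.084, interval -0.39 to -0.05) passed narrowly (limma adjusted p = 0.0496). It no longer passed without a filter on dim genes (adjusted p = 0.0703), and without 4N it was -0.16 (adjusted p = 0.0787). Relative to the array median it was -0.08 (adjusted p = 0.379). Irs2 stood at 7.70, 7.95 and 8.29 in haloperidol brains, against 7.82, 8.13 and 8.39 in placebo brains, and its change of -0.15 (SE 0.091) did not pass (limma adjusted p = 0.209). Foxo1 stood at 7.78, 8.19 and 8.57 in haloperidol brains, against 7.88, 8.29 and 8.64 in placebo brains, with a change of -0.06 (SE 0.095, limma adjusted p = 0.621), which was 0.07 relative to the array median.

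**Figure D5:**
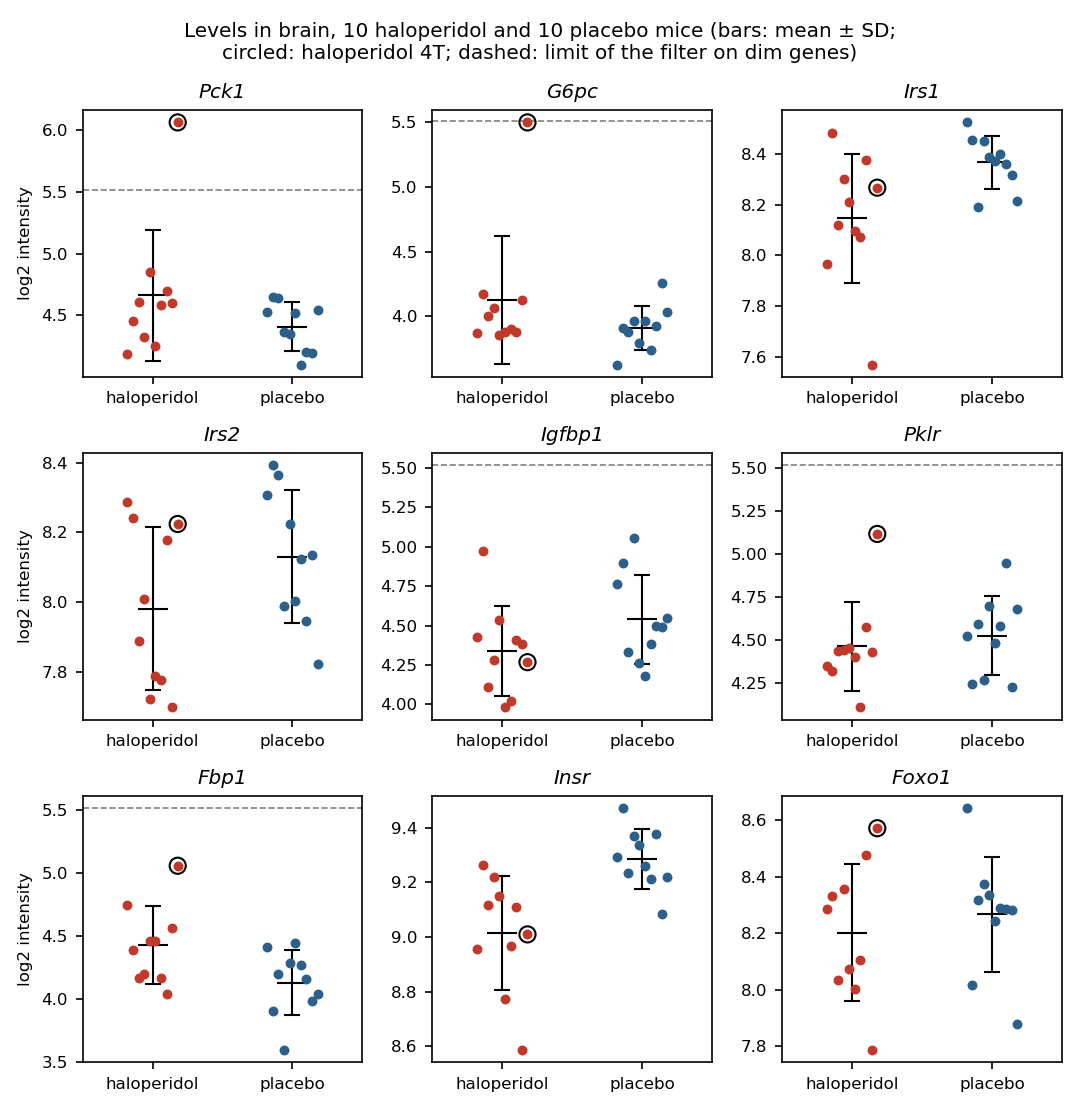
Brain levels of the 9 genes on the log2 intensity scale, 1 point per mouse, with haloperidol left and placebo right and bars for the mean and SD of 10 mice each. The circled haloperidol brain 4T is highest in Pck1, G6pc, Pklr and Fbp1 but lies above the dashed limit for dim genes, 5.52, in Pck1 alone of these 4, and all 10 haloperidol points of Insr are below the placebo mean of 9.29.

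Pck1, G6pc, Fbp1, Pklr and Igfbp1 were below the limit for dim genes in brain, a mean of 5.52, and were not tested. Pck1 lay between 4.19 and 4.85 in the 9 haloperidol brains other than 4T and at 6.06 in 4T, against 4.10 to 4.65 in placebo brains. G6pc lay between 3.85 and 4.17 in those 9 and at 5.50 in 4T, against 3.63 to 4.26 in placebo brains. Pklr was at 5.12 and Fbp1 at 5.06 in 4T, the highest value of either gene in brain, while Igfbp1 was at 4.27 there, within the range of 3.98 to 4.97 of the other haloperidol brains. This is the brain in which Alb was at 11.11. Without 4T, haloperidol minus placebo was 0.10 for Pck1 and 0.06 for G6pc, against 0.25 and 0.22 with it. For Fbp1 it was 0.23 without 4T and 0.30 with it, for Pklr -0.13 without and -0.06 with it, and for Igfbp1 -0.19 without and -0.20 with it.

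The change of Insr differed between the tissues as deposited. Its liver change minus its brain change was 0.39 (SE 0.13, interval 0.13 to 0.66, limma adjusted p = 0.0282) in a fit of all 38 arrays, where 2502 of 10869 genes passed (23%), 996 above and 1506 below 0 (272 and 4073 relative to the array median). Its second probe set gave 0.33 (adjusted p = 0.00499). Without the haloperidol brain 4N it was 0.35 (adjusted p = 0.0518), and relative to the array median 0.17 (adjusted p = 0.326). Irs1 had a difference of 0.26 (SE 0.16, adjusted p = 0.233), Irs2 of 0.25 (SE 0.20, adjusted p = 0.389) and Foxo1 of -0.02 (SE 0.13, adjusted p = 0.941), none of which passed in limma.

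Of 32 other genes of insulin signalling tested in brain, 5 passed lower and 1 higher as deposited, but 5 higher and 0 lower relative to the array median. With quantile normalization within each tissue, 8 passed lower and 3 higher. As deposited, Tsc1 (a brake on mTORC1) at -0.25 (limma adjusted p = 0.00633), Rictor at -0.18 (adjusted p = 0.00991), Pik3ca at -0.22 (adjusted p = 0.0142), Tsc2 at -0.19 and Igf1r at -0.24 were the lower ones and Igfbp3 at 0.28 the higher one. Of 23 genes of glucagon, cAMP and glucocorticoid signalling, 6 passed lower and 1 higher as deposited, and 1 lower and 5 higher relative to the array median. With quantile normalization 6 passed lower and 1 higher. Prkaa2, a catalytic subunit of AMP-activated kinase, fell by 0.19 (limma adjusted p = 0.00912), Ppargc1b, a coactivator of mitochondrial genes, fell by 0.40 (adjusted p = 0.0111), and Hsd11b1, which regenerates active glucocorticoid, rose by 0.59 (adjusted p = 0.0166).

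Of 14 genes of glycogen in brain, 4 passed higher and 1 lower as deposited, and 6 higher and 0 lower relative to the array median. Ugp2, which makes UDP-glucose, rose by 0.54 (limma adjusted p = 0.00525) and Gbe1, the branching enzyme, by 0.29 (adjusted p = 0.0103), while Phka2 fell by 0.23 (adjusted p = 0.0115). Of 22 genes of gluconeogenesis and glycolysis, 2 passed higher as deposited, Pgk1 at 0.33 and Pdk1 (a brake on pyruvate dehydrogenase) at 0.23, and 1 lower, Pfkfb2 (which makes the activator of phosphofructokinase) at -0.21; relative to the array median 6 passed higher and 0 lower. Of 16 fasting genes, Acot1 (an acyl-CoA thioesterase, 0.39) and Ddit4 (an inhibitor of mTORC1, 0.30) passed higher and Lpin1 (a phosphatidate phosphatase, -0.17) lower as deposited, and 4 passed higher and 0 lower relative to the array median. Of 19 feeding genes, Thrsp at 0.54, Me1 (malic enzyme) at 0.32 and Taldo1 at 0.32 passed higher, and Acss2 (an acetyl-CoA synthetase) lower at -0.21 as deposited, and 6 passed higher and 0 lower relative to the array median. With quantile normalization, glycogen genes passing were 4 higher and 1 lower, and those of gluconeogenesis and glycolysis 3 higher and 3 lower. Fasting genes passing were then 2 higher and 0 lower, and feeding genes 4 higher and 2 lower. With the array median as a covariate 0 genes of the 6 lists passed, as did 0 of all 12547 genes tested in brain. That fit cannot tell array level from treatment. As deposited, the shares called in these 6 lists, 13.6% to 35.7%, stand beside the 30.4% of all genes.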

How the data were processed

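Affymetrix arrays measured total RNA of 18 livers and 20 brains. The deposited values are log2 intensities made by the authors; per the submitters' processing notes the tools were Affymetrix Expression Console and RMA, with no version given. RMA corrects the background, gives arrays a common distribution and summarises probe sets, so a change in total RNA is not seen. Sorted values lay within 0.208 of the tissue mean distribution in brain and 0.234 in liver, and 1.421 apart between tissues, so levels were compared within a tissue. Groups come from the labels, and arrays within a tissue are of separate mice per the series' design text. The number of arrays limits the precision.

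Of 35556 probe sets, 21218 had 1 gene symbol, 1881 several (not used) and 12457 none; 21185 matched RefSeq. The brightest probe set per gene gave 18820 genes. The dimmest 33.3% of genes per tissue were left out, which left 12547 (10869 in both tissues). limma 3.58.1 in R 4.3.3 (lmFit, eBayes) tested haloperidol against placebo within each tissue, and the difference between tissues over all 38 arrays, with Benjamini-Hochberg adjustment over all genes tested and a threshold of 0.05. Correlations were tested with 100000 permutations within treatment groups, two-sided, and adjusted over their family. On simulated liver data of 12547 genes, 7.58% of changes of 0.25, 65.2% of 0.5 and 100% of 1 on the log2 scale were recovered. Whether a change of these sizes in a given member would pass in the measured livers was not tested. The 95% confidence interval of Igfbp1 in liver, -0.42 to 1.07 (SE 0.36), includes a change of 1. The spread test recovered 0% of genes whose SD was changed 2-fold and 8.06% of those changed 8-fold.

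Brain and liver arrays share 18 tags, each with the same treatment in both tissues, and whether a shared tag marks 1 mouse is not given in the sources used here. Deviations of the 18 same-tag pairs had r between -0.318 and 0.249, with 5 above 0.1, so the tags were not used as pairs. Named were the members, per list the 3 genes of smallest p in liver and the 3 of smallest adjusted p among those called in brain (other called genes of 2 lists were named after their values were seen, as were the single fasting genes set beside Pck1 and Igfbp1), the 3 genes of highest r per member, and Alb and Snap25. Other marker genes named in brain were chosen after their values were seen. Members and lists were chosen with earlier results of these data known. Alternatives covered the filter, scaling, variance model, array weights, probe choice, tag digit, test and each array left out.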

Additional observations from a re-analysis of the deposited data

Results flagged for a closer look

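Each of the 36 groups of values (9 genes, 2 tissues, 2 treatments) was searched for a highest or lowest sample set apart from the others by more of the group's range than Dixon's 95% limit allows, which chance alone does in about 1 group in 20, and 4 were found. In brain with haloperidol, 4T stood out in Pck1, at 6.06 against a next highest value of 4.85. It stood out in G6pc, at 5.50 against 4.17, and in Pklr, at 5.12 against 4.58. This brain also held Alb at 11.11 and the highest mean of the hepatocyte markers, 9.01. In liver with placebo, 3L stood out in Irs1, at 8.58 against a next highest value of 8.28.

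Of the 4 members tested in both tissues, Insr was the one whose haloperidol change differed between the tissues as deposited, by the test of the difference itself, with a liver change minus brain change of 0.39 (limma adjusted p = 0.0282). By the same test 2502 of all 10869 genes passed (23%), so the call is not particular to Insr. The liver change was 0.12 and the brain change -0.27. The difference did not pass relative to the array median (0.17, limma adjusted p = 0.326) or with the array median as a covariate, where 0 of 10869 genes passed. In brain that covariate went largely with treatment, so the fit with it cannot decide. The difference also did not pass without the haloperidol brain 4N, or without the 3 brains haloperidol 4T, haloperidol 4N and placebo 1L.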

How the results depend on the processing

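In liver, 0 of the 9 members passed under any of the 29 alternatives, all arrays left out in turn included; genes passing numbered 40 with all 38 arrays in 1 fit, 0 to 1 with each liver left out (1 without haloperidol 1B) and 0 otherwise. Uncalled liver changes crossed 0 for Irs1 with array medians subtracted (-0.0477), array median as a covariate (-0.0989), array weights (-0.0146) and tag digit as a block (-0.0194), and with array weights for Irs2 (-0.0233), Igfbp1 (-0.0128) and Pklr (0.0147). Leaving out single livers gave -0.142 to 0.00233 for Pck1, -0.0987 to 0.0192 for G6pc, -0.024 to 0.107 for Irs1 and -0.0188 to 0.192 for Irs2. The causes were not tested.

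In brain, members called numbered 1 in place of 2 without a filter, with quantile normalization, the tag digit as a block, all 38 arrays in 1 fit or the exact Wilcoxon test. They numbered 1 with haloperidol 4T, haloperidol 4N and placebo 1L all left out (2530 genes), and 1 to 2 with each brain left out (2873 to 4814 genes). They numbered 0 with array medians subtracted (4555 genes) or as a covariate (0 genes). The covariate fit cannot tell array level from treatment in brain. Insr passed in 31 of 33 alternatives, the exceptions being those with the array median; Irs1 passed in 10 of 32, and was 0.0837 with the covariate, where Foxo1 was 0.0372. Foxo1 was 0.0715 with array medians subtracted.

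For liver minus brain, 4345 genes passed with array medians subtracted, 0 with the covariate, 1571 without the 3 brains and 1927 to 3001 with each array left out; members called were 0 in the first 3 of these and 0 to 1 with arrays left out (0 without haloperidol brain 4N). Irs1 was -0.183 with the covariate, and Foxo1 -0.0635 to 0.0261 with arrays left out. The tags were not used as pairs; with the tag as a random block (consensus correlation -0.0335), 2364 genes and 1 member (Insr, 0.39, adjusted p = 0.0322) passed, and no other call of a member changed.

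Genes differing by tag letter numbered 0, against 139 by digit. Pairs of members passing numbered 1 in the main setting, 5 by Spearman's rho, 0 centred on treatment and digit, 2 without the 2 farthest livers and 8 with array medians subtracted (Pck1 with Irs2 and with Igfbp1 among them), where 2 relations with the lists passed, Pklr with feeding and Foxo1 with fasting. Array signal cannot separate the 5 dim members from background in brain. The second Insr probe set was tried after seeing the data.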
